A study of Mus musculus with 10 samples.

Results

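Cluster 13 of the colonic cells held 90 of the 3065 colonic cells that the authors kept, and of 25204 kept cells in the whole series. Its members were taken from the authors' own table of cells, where they carry the cluster name 13_other, a name that gives no cell type. Of these 90 cells, 36 came from the library of colonic crypts of normal mice and 54 from the library of colonic crypts of mice treated with DSS (dextran sodium sulphate, a chemical that damages the colonic epithelium when given in the drinking water). Each condition was 1 single-cell library made by droplet capture, in which every captured RNA molecule is counted once by its unique molecular identifier (UMI). The study's methods name young adult female mice for the DSS model. The strain of each library and the number of mice behind it were not given in the sources used here. With 1 library a condition, every difference below compares those 2 libraries and not the conditions, and no test across mice was made.

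The renewing cells of the colonic crypt lie near its base. Stem cells there divide, and their daughters, often called transit amplifying cells, divide several more times before they become absorptive colonocytes or mucus-making goblet cells. A cell copies its DNA in S phase and separates the copies in mitosis (M), with a gap called G2 between them, and the genes for each step are switched on in turn.

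The 90 cells were marked by the genes of cell division. The summed level of 14 cell cycle genes was 3897 counts per 1000000 UMIs (CPM; 95% Poisson interval 3786 to 4009) in the normal cells of cluster 13 and 4110 CPM (4001 to 4222) in its DSS cells. The other kept colonic cells had 413 CPM in the normal library and 383 CPM in the DSS library, so the sum was 9.43-fold and 10.7-fold higher in cluster 13. Cluster 2, which the authors named as stem cells, had 1007 and 575 CPM. These intervals, and the others below, cover counting error only, not the spread between mice or cells. The authors' clusters were built from the same expression values, so the genes that set cluster 13 apart are given as a description with no test.

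The cells were epithelial apart from a few. All 11 pan-epithelial markers were measured, and they summed to 16887 CPM in the normal and 16521 CPM in the DSS cells, against 25514 and 23917 CPM in the other colonic cells. Epcam, the cell adhesion molecule of epithelia, was at 1775 and 2508 CPM, with a UMI in 35 of 36 normal and 51 of 54 DSS cells. Ptprc, the pan-leukocyte gene that encodes CD45, had a UMI in 1 of 36 normal and 2 of 54 DSS cells. The defining markers Dclk1 and Trpm5 of tuft cells, Cpa3 of mast cells, Col1a1 of fibroblasts and Csf1r of macrophages had no UMI in either library's cluster 13, which at 3 UMIs per library allows up to 2.48 CPM in the normal and 2.29 CPM in the DSS cells. Other genes of the tuft and macrophage lists did have UMIs. The 21 tuft genes summed to 18.2 and 44.2 CPM, against 58.1 and 105 CPM in the other colonic cells. The 12 macrophage and monocyte genes summed to 88.3 and 108 CPM, against 85.6 CPM in the other cells of the normal library. By its epithelial and cell cycle markers, cluster 13 is thus a group of cycling epithelial cells, and it is called cluster 13 here.

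Cluster 13 made up 3.18% of the kept cells of the normal library (95% exact binomial interval 2.24 to 4.38%) and 2.79% of those of the DSS library (2.11 to 3.63%). The intervals overlap widely. Leaving out the 6 of 25 colonic clusters in which most cells held a Ptprc UMI gave 3.94 and 3.63%. Among cells with at least 1500 genes the shares were 4.16% and 3%. How many dividing cells each colon held cannot be read from these shares.

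**Figure D1:**
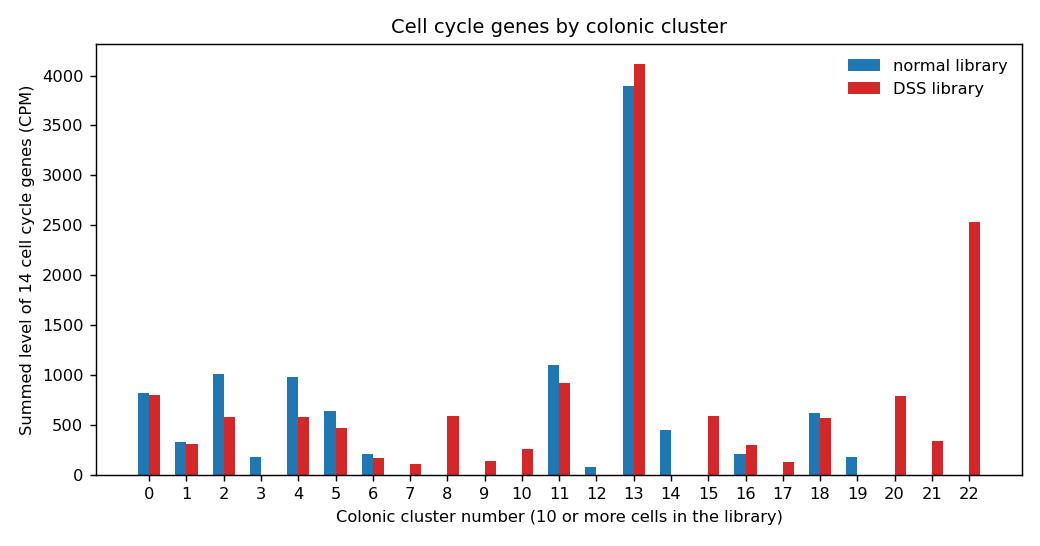
Summed level of 14 cell cycle genes (CPM) in each colonic cluster with at least 10 cells in that library, blue for the normal and red for the DSS library; a missing bar means fewer than 10 cells. Cluster 13 stood at 3897 and 4110 CPM. The next highest bars were cluster 11 of the normal library at 1096 CPM and cluster 22 of the DSS library at 2534 CPM.

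The depth of the 2 sets of cells differed. The normal cells of cluster 13 held 2703 to 65595 UMIs with a median of 34273, and the DSS cells 1002 to 78163 with a median of 21475, for totals of 1212102 and 1310835 UMIs. The other kept colonic cells had medians of 17664 and 15803. Under 6000 UMIs lay 2 normal and 14 DSS cells. The median share of mitochondrial UMIs in cluster 13 was 8.72% in the normal and 7.72% in the DSS cells. Of the barcodes in the kept cells, 2 occurred in both colonic libraries. One of these belonged to cluster 13 in both, as its shallowest DSS cell (1002 UMIs) and its deepest normal cell (65595 UMIs). The libraries also differed in sex-linked genes, and this difference cannot be told apart from that of treatment. Xist, the RNA that coats an inactive X chromosome, had a UMI in 34 of 36 normal and in 0 of 54 DSS cells, while Eif2s3y or Ddx3y, both on the Y chromosome, had a UMI in 0 normal and in 38 DSS cells. No cell held both kinds. The DSS library thus went against the female sex that the methods give for that model, and the cause was not tested.

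Of 9412 genes tested, 73 (0.776%) were at least 4-fold above the other colonic cells in both libraries after adding 10 CPM to each level. Tested genes had a UMI in at least 10% of the cluster's cells or of the other colonic cells, in each library. Of these 73 genes, 63 stood in the cell cycle list or in the lists of proliferation genes drawn up afterwards. The 10 others were Selenoh, Ccdc34, Knstrn, H2afz, Hmgn2, Hirip3, Shcbp1, H2afx, Dek and Fam111a, named after their values were seen. Of the 14 cell cycle genes, 12 were among the 73, and Pcna and Mcm2 were the remaining 2.

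The gene furthest above the rest was Pclaf, which encodes a partner of the sliding clamp PCNA at the replication fork, at 543 CPM in the normal and 314 CPM in the DSS cells of cluster 13 against 11.2 and 6.34 CPM elsewhere. Ube2c, the ubiquitin-conjugating enzyme that works with the anaphase promoting complex, followed at 357 and 448 CPM against 6.42 and 19.0 CPM. Birc5, which encodes survivin of the chromosomal passenger complex, was at 231 and 317 CPM against 6.47 and 8.62 CPM. The levels of each of these 3 genes were far apart between cluster 13 and the other cells in both libraries. Mki67, the gene of the proliferation antigen Ki-67, was at 185 and 211 CPM against 7.65 and 8.30 CPM, and a UMI of it was found in 83.3% of normal cells (30 of 36) and in 77.8% of DSS cells (42 of 54). For comparison, it had a UMI in 1.08% of the cells of normal cluster 12 (median 5847 UMIs) and in 4.74% of normal cluster 3 (median 22335 UMIs), both high in colonocyte genes, and in 2.55% of DSS cluster 6 (median 22310 UMIs). Its share was higher in the stem cluster, at 24.5% in the normal (median 22965.5 UMIs) and 13.7% in the DSS library (median 19468.5 UMIs). It reached 27.3% in normal cluster 4, which had only 11 cells (median 25356 UMIs). Thinned to 2000 UMIs a cell, Mki67 remained in 16.7% of normal cells and 29.2% of DSS cells in cluster 13, and in 1.06 and 1.24% of the other cells. The thinning left out 6 DSS cells of cluster 13 as too shallow.

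**Figure D2:**
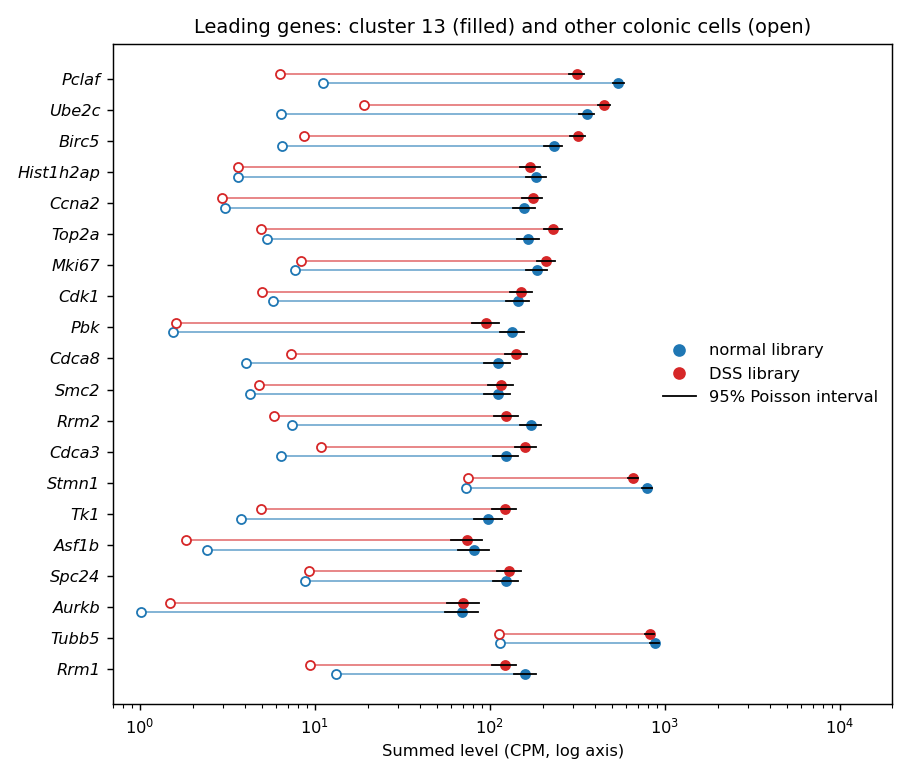
Summed level (CPM, log axis) of the 20 leading genes of cluster 13, filled circles for cluster 13 and open circles for the other kept colonic cells, blue for the normal and red for the DSS library, with the 95% Poisson interval of cluster 13 in black. Each filled circle lies far to the right of its open partner, as for Pclaf at 543 against 11.2 CPM in the normal library.

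The start of these genes was read from the reference because many of them are known to share promoter elements. RefSeq promoters (GRCm38.p6; 250 bases before to 50 after the start) were found for 21 of the 27 genes that lead the cluster or stand in the cell cycle list. Searched on both strands, CCAAT, the box bound by NF-Y, was in 18 of the 21 (85.7%) and in 37.4% of all 32851 promoters. TTTGAA, the cell cycle homology region that the MuvB complex reads, was in 11 of 21 (52.4%) against 17.9% of all promoters, and both motifs together were in 11 of 21 against 6.95%. TTGGCGC, an E2F-type site, was in 4 of 21 (19.0%) against 2.45%, and TTCCCGC, another E2F-type site, in 2 of 21 (9.52%) against 4.60%. On the opposite strand CCAAT reads ATTGG, whose last letters can overlap TTGGCGC. A match is only a match of letters.

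The 120 bases before the start of 4 genes of the G2 and M list and of 2 genes of the S list (both lists are described below) are shown to let the spacing of these motifs be seen. They are written 5′ to 3′ on the gene's own strand, and capitals mark the letters of any of the 4 motifs on either strand. Cdk1 lies at chr10:69352913-69353032, Top2a at chr11:99024190-99024309 and Ccnb2 at chr9:70421555-70421674, all 3 on the minus strand, and Hmgb2, a chromatin protein, at chr8:57511723-57511842 on the plus strand. Mcm5 lies at chr8:75109389-75109508 and Rrm1 at chr7:102441575-102441694, both on the plus strand.
Cdk1: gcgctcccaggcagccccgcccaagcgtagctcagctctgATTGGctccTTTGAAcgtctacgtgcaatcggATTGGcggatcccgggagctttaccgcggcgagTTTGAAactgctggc
Top2a: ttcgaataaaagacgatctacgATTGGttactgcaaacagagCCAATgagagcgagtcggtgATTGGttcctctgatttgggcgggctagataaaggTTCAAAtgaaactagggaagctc
Ccnb2: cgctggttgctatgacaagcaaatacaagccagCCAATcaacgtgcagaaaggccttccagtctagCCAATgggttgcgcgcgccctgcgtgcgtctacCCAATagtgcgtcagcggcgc
Hmgb2: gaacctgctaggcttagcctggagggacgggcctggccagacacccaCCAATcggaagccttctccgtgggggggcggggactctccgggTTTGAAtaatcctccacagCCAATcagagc
Mcm5: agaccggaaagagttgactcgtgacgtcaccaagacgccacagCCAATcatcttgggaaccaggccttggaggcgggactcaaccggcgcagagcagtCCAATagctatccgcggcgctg
Rrm1: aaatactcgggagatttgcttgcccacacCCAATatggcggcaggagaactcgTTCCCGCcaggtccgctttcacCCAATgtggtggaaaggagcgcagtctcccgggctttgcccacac
In each of the first 4 genes CCAAT boxes are repeated within the stretch, and in Cdk1, Top2a and Hmgb2 a TTTGAA or its reverse, TTCAAA, lies on the start side of at least 1 box. Mcm5 and Rrm1 hold CCAAT boxes without TTTGAA in the stretch shown, and Rrm1 holds TTCCCGC between its boxes.

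The genes of DNA copying were raised in part. These proliferation lists were drawn up after the data were seen, so counts of their raised members are a description only. Of all 9412 genes tested, 0.776% were raised. Of 39 genes for origin licensing, the replication fork and chromatin assembly, 10 were among the 73, and the list summed to 3348 CPM in the normal and 2353 CPM in the DSS cells, 6.31-fold and 6.08-fold above the other colonic cells. Mcm5, a subunit of the helicase that opens the DNA, was at 138 and 83.9 CPM against 16.2 and 6.76 CPM. Lig1, the ligase that joins Okazaki fragments, was at 134 and 81.6 CPM against 14.7 and 8.52 CPM. In both genes the normal cells were higher than the DSS cells, by less than 2-fold. Of 19 genes of nucleotide supply, 5 were raised, namely Rrm1, Rrm2, Tyms, Tk1 and Dut. Rrm2, the small subunit of ribonucleotide reductase, was at 172 and 124 CPM against 7.44 and 5.85 CPM.

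The genes of mitosis were also raised in part. Their lists too were drawn up after the data were seen, and 0.776% of all 9412 genes tested were raised. Of 19 kinetochore and centromere genes 10 were raised, with a sum 13.3-fold and 14.4-fold above the other cells. Of 23 genes for mitotic kinesins, the spindle and cytokinesis 11 were raised, of 13 mitotic kinase and checkpoint genes 6, and of 15 condensin, cohesin and topoisomerase genes 6. Of 13 genes for the anaphase promoting complex, its activators and targets only 2 were raised, and that list's sum was 2.53-fold and 2.89-fold above the other cells. Top2a, the topoisomerase that untangles sister chromatids, was at 166 and 230 CPM against 5.35 and 4.89 CPM. Cdk1, the kinase that drives entry into mitosis, was at 144 and 151 CPM, and its partner Ccna2 at 158 and 175 CPM. For these 2 genes the normal and DSS levels had overlapping intervals. Stmn1, a protein that destabilises microtubules, was at 790 and 661 CPM, and Tubb5, a beta tubulin, at 873 and 822 CPM. Tubb5 and the histone gene Hist1h2ap have close paralogues, among which reads may have been divided, so both values are uncertain.

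Some groups tied to growth did not reach 4-fold. None of 22 genes of ribosome biogenesis reached 4-fold, and their sum was 1.57-fold and 1.65-fold above the other cells, and 0.932-fold and 1.33-fold that of the stem cluster in the normal and DSS library. None of the 15 measured E2F, MuvB, Myb and FoxM1 regulators reached 4-fold, though their sum was 2.39-fold and 2.27-fold above the other cells. None of the 12 measured CDK inhibitors and pocket proteins did either, with sums 0.899-fold and 0.916-fold those of the other cells. Of all 9412 genes tested, 0.776% were raised, so having none raised in lists this short is near that share. With 10 CPM added, genes of low level can hardly reach 4-fold, so these counts do not show that the groups were unchanged.

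Cell cycle genes were also found outside cluster 13. Of all kept colonic cells with a UMI of at least 5 of the 14 cell cycle genes, cluster 13 held 35 of 204 (17.2%) in the normal and 50 of 322 (15.5%) in the DSS library. This count depends on depth. After thinning every cell to 2000 UMIs, at least 5 of the 14 genes remained in 16 of 36 normal and 25 of 48 DSS cells of cluster 13, in 0 of 1033 other normal cells, which allows up to 0.356%, and in 9 of 1698 other DSS cells. In the stem cluster the thinned count was 0 of 98 and 0 of 151. Cluster 22, the next highest of the DSS library, had 21 cells with a median of 1570 UMIs. In the organoids of the series, grown from small intestinal crypts, the class the authors named TA (transit amplifying) had sums of 4438 to 4958 CPM over 8 libraries, above both values of cluster 13. Their enterocyte progenitor class EP had 3362 to 3865 CPM over 5 libraries, below both values. Their stem class SC had 1562 to 2327 CPM and their goblet class GC 1838 to 3175 CPM. These cells came from another gut segment and from culture, so the values are given side by side only.

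The phases were mixed within the cluster. A list of 43 S phase genes summed to 3415 CPM (3311 to 3520) in the normal and 2513 CPM (2428 to 2600) in the DSS cells, and a list of 54 G2 and M genes to 6434 CPM (6292 to 6579) and 7648 CPM (7499 to 7799). The ratio of the S to the G2/M sum was 0.531 in the normal and 0.329 in the DSS cells, while in the organoid TA class it lay between 0.253 and 0.349 and in the EP class between 0.359 and 0.394. In single cells the S sum ran from 609 to 9711 CPM (median 3469) in the normal and from 0 to 9579 CPM (median 1905) in the DSS cells. The G2/M sum ran from 1572 to 16365 CPM (median 5427) and from 484 to 17674 CPM (median 7310). Several of these ends came from cells with an epithelial-marker sum under 1000 CPM, described below. Without such cells the S sum reached 8440 CPM in the normal and 5342 CPM in the DSS cells. The G2/M sum then ran from 1572 to 13417 CPM and from 1867 to 17674 CPM. Both sums overlapped widely between the libraries. The S sum exceeded the G2/M sum in 10 of 36 normal cells (27.8%, 14.2 to 45.2%) and in 6 of 54 DSS cells. Without the cells of low epithelial-marker sum these were 10 of 35 and 5 of 51. After thinning the counts were 11 of 36 (30.6%) and 7 of 48 (14.6%, 6.07 to 27.8%), so the intervals overlapped. The larger sum does not call a cell's phase, since the G2/M list is longer and can lead in cells that seldom hold Mki67. In normal cluster 3, where 4.74% of cells had a Mki67 UMI, the sums were 380 CPM for S and 1736 CPM for G2/M. Free RNA in the droplets adds to such sums, and its part in them was not tested.

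**Figure D3:**
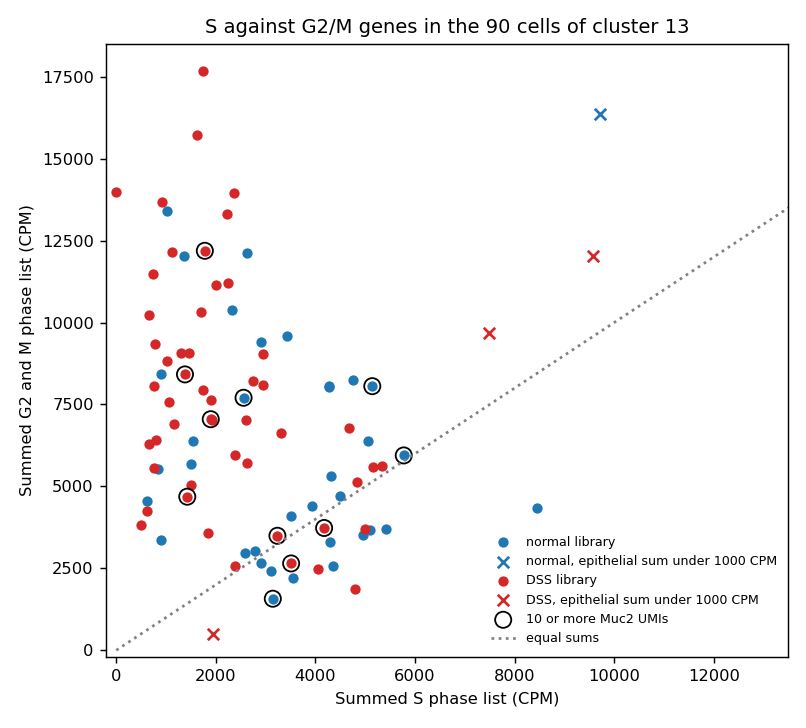
Summed S phase list (horizontal axis, CPM) and summed G2 and M phase list (vertical axis, CPM) in each of the 90 cells, blue for the normal and red for the DSS library; crosses are cells with an epithelial-marker sum under 1000 CPM, rings mark cells with 10 or more Muc2 UMIs, and the dotted line marks equal sums. Below the line, where the S sum is the larger, lay 10 of 36 normal and 6 of 54 DSS cells. The line is no boundary between phases, since the lists differ in length and in their level outside cycling cells.

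Single genes followed the phases. Among the S genes 37 of 43 had a ratio of DSS to normal below 1, and among the G2/M genes 43 of 54 had one above 1. The median log2 ratios of DSS over normal were -0.36 and 0.26, against 0.01 over all 10250 genes measured. Called differences are those past 2-fold after adding 10 CPM, with intervals that do not overlap and a UMI in at least 10% of the cluster's cells in either library. Of the 10250 genes, 142 (1.39%) were higher and 131 (1.28%) lower in the DSS cells. Among the S genes 0 were higher and 2 lower, and among the G2/M genes 4 were higher and 0 lower. Pcna, the sliding clamp, fell from 225 to 96.9 CPM (log2 ratio -1.14). Uhrf1, which keeps DNA methylation through replication, fell from 126 to 56.5 CPM (log2 ratio -1.04). Ccnb2, a B-type cyclin whose promoter stretch is printed above, rose from 71.8 to 166 CPM (log2 ratio 1.10), and Cenpa, the histone that marks centromeres, from 81.7 to 190 CPM (log2 ratio 1.13). Pcna, Uhrf1 and the S list were also lower in the DSS cells of the stem cluster (log2 ratio -1.35 for Pcna, -1.76 for Uhrf1, and a median of -0.85 for the list). Ccnb2 and Cenpa had log2 ratios there of -0.07 and -0.44. Of the genes that hold the cycle back, Cdkn1a, the inhibitor p21, was at 146 CPM in the normal and 55.7 CPM in the DSS cells, and Cdkn1b, the inhibitor p27, at 12.4 and 38.1 CPM. Ccnd2, a cyclin of the G1 phase, fell from 262 to 106 CPM.

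A few cells of the cluster were not epithelial by their markers. In 1 normal and 3 DSS cells the epithelial markers summed to under 1000 CPM, while in the remaining cells they reached at least 8333 CPM. The normal one (11121 UMIs) held 14 UMIs of Cd3e, a chain of the T cell receptor complex, and 6 Ptprc UMIs, with 13 of the 14 cell cycle genes. Of the DSS ones, 2 (15498 and 20462 UMIs) held 20 and 33 UMIs of Cd79a, a signalling chain of the B cell receptor, and 159 and 116 of Igkc, the kappa light chain, with 11 and 13 of the 14 cell cycle genes. All 53 Cd79a UMIs and 275 of the 288 Igkc UMIs of cluster 13 lay in these 2 cells. The last (2065 UMIs) held 88 Cd74 UMIs, no Ptprc UMI and 1 cell cycle gene. Without them 66 of the 73 genes remained at 4-fold, and 136 of the 142 higher and 123 of the 131 lower genes remained called. Another normal cell (35194 UMIs) was epithelial and held all 183 Chgb UMIs and all 26 Chga UMIs of the normal cells, both markers of enteroendocrine cells, with 12 of the 14 cell cycle genes.

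Goblet genes differed between the libraries in both directions, and most of their UMIs lay in a few cells. The 15 goblet genes summed to 2734 CPM (2642 to 2829) in the normal and 5854 CPM (5724 to 5987) in the DSS cells, against 12595 and 7540 CPM in the other colonic cells. Of the 15, 4 were higher and 3 lower in the DSS cells, against 1.39% and 1.28% of all 10250 genes measured. Muc2, the main gel-forming mucin, rose from 241 to 726 CPM (log2 ratio 1.55), Agr2, a disulphide isomerase needed to fold it, from 977 to 3140 CPM, and Spink4, a goblet secretory peptide, from 257 to 1036 CPM. Of the normal Spink4 UMIs 64.4% were in 1 cell, and without the deepest 10% of cells Spink4 was at 111 and 1015 CPM (log2 ratio 3.09 in place of 1.97). In the other colonic cells the log2 ratio of DSS over normal was -0.44 for Muc2 and -0.22 for Agr2. Clca1, a secreted mucus-processing protein, was at 228 CPM in the normal cells and had 1 UMI in the DSS cells. Of its normal UMIs 63.4% were in 1 cell, and without the deepest 10% of cells it was at 103 CPM in the normal cells. Fcgbp, a mucus component, fell from 193 to 56.5 CPM. Once the 5% of cells that scored highest as doublets were left out, the goblet sums were 1646 and 5864 CPM, a ratio of 3.56 in place of 2.14, with 5 genes higher and 1 lower.

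Most of the goblet UMIs lay in 11 cells. At least 10 Muc2 UMIs were found in 4 of 36 normal cells (11, 55, 59 and 160 UMIs) and in 7 of 54 DSS cells (10, 62, 84, 173, 173, 177 and 241 UMIs). The other epithelial cells of the DSS library held at most 4. Each of the 11 cells had UMIs of at least 8 of the 14 cell cycle genes. The share of such cells was 11.1% (3.11 to 26.1%) in the normal and 13% (5.37 to 24.9%) in the DSS library, with overlapping intervals. Without them the goblet sum was 742 CPM in the normal and 930 CPM in the DSS cells, Agr2 was at 321 and 488 CPM, and the log2 ratio of Fcgbp turned to 0.10. Of the 12 goblet genes then measured, 3 were still higher and 0 lower in the DSS cells. Zg16, another goblet gene, had a log2 ratio of 2.19 and Spink4 one of 1.19. Clca1 was then at 11.5 CPM in the normal cells, and its log2 ratio moved from -4.47 to -0.96, no longer past 2-fold. The normal cells also held Mptx1, a pentraxin, at 1287 CPM against 2.29 CPM in the DSS cells. Of its 1560 normal UMIs, 82.5% were in 1 cell, which is 1 of the 4 Muc2-rich ones. In the other colonic cells Mptx1 was at 7671 and 94.6 CPM.

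Colonocyte genes were lower in the DSS cells. Of 14 measured genes 0 were higher and 8 lower, against 1.39% and 1.28% of all 10250 genes measured. The sums were 5410 CPM (5279 to 5542) in the normal and 2588 CPM (2501 to 2676) in the DSS cells, with a median log2 ratio of -1.30. Car1, a carbonic anhydrase of the colonic surface, fell from 1048 to 287 CPM, Guca2a, which encodes guanylin, from 365 to 88.5 CPM, and Krt20, a keratin of differentiated cells, from 76.7 to 18.3 CPM. Car1 was uneven among the normal cells, with a median of 5.5 UMIs a cell and up to 417. The DSS cells, which were shallower, had a median of 2 and up to 94. In the other colonic cells the list's median was -0.65 and in the stem cluster 0.15. In single cells the list ran from 270 to 27011 CPM (median 3523) in the normal and from 195 to 6986 CPM (median 1971) in the DSS cells, so the ranges overlapped while that of the normal cells reached higher. At least 10 Car1 UMIs were found in 15 of 36 normal cells (41.7%, 25.5 to 59.2%) and in 7 of 54 DSS cells (13%, 5.37 to 24.9%), a count that depends on depth. Among epithelial cells of at least 6000 UMIs the shares were 45.5% (28.1 to 63.6%) and 18.4% (7.74 to 34.3%), and after thinning a Car1 UMI was left in 47.2% (30.4 to 64.5%) and 25% (13.6 to 39.6%), with overlapping intervals in both cases. Once the 5% of cells that scored highest as doublets were left out, the sums were 4244 and 2589 CPM, with 5 genes lower.

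Stem genes stood between the stem cluster and the other cells. The 11 genes summed to 447 CPM (410 to 486) in the normal and 722 CPM (677 to 770) in the DSS cells, against 934 and 870 CPM in the stem cluster and 268 and 349 CPM in the other colonic cells. All 11 had a ratio of DSS to normal above 1, with a median log2 ratio of 0.63, and 1 was called. Over all 10250 genes measured, 1.39% were called higher. Lgr5, the receptor that marks crypt base stem cells, was at 2.48 CPM in the normal cells (3 UMIs in 2 cells) and 20.6 CPM in the DSS cells (27 UMIs in 11 cells). After thinning it was left in 0 of 36 and 2 of 48 cells, so a difference in the share of cells was not detectable at that depth. Sox9, a transcription factor of the crypt base, was at 95.7 and 146 CPM and did not reach 2-fold.

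**Figure D4:**
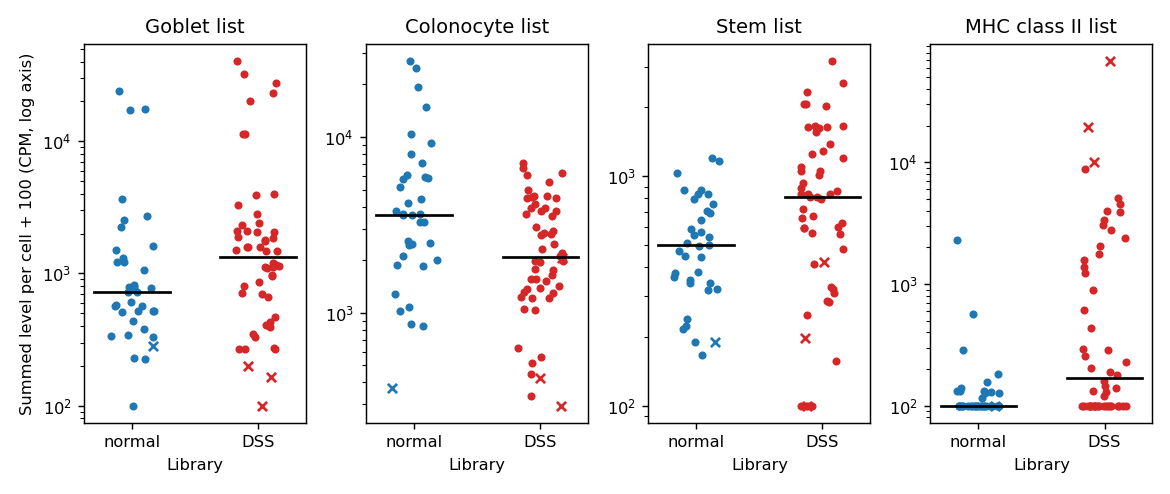
Summed level per cell plus 100 (CPM, log axis) of the goblet, colonocyte, stem and MHC class II lists in the 36 normal (blue) and 54 DSS cells (red) of cluster 13; the black line is the median and crosses are the 4 cells with an epithelial-marker sum under 1000 CPM. The colonocyte median was 3523 CPM in the normal and 1971 CPM in the DSS cells before the 100 was added. Most DSS cells above 1000 CPM in the MHC class II panel were epithelial. Most of those held under 6000 UMIs, where a few UMIs give such a level, as in the cell with 2 of 1569 UMIs at 1275 CPM.

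MHC class II genes, which present peptides to T helper cells, rose in the DSS cells. Of 6 measured genes 5 were higher and 0 lower, against 1.39% and 1.28% of all 10250 genes measured. The list of 9 summed to 85.0 CPM (69.4 to 103) in the normal and 1074 CPM (1019 to 1132) in the DSS cells. Cd74, the invariant chain, was at 45.4 CPM in the normal and 690 CPM in the DSS cells, and H2-Aa, an alpha chain, at 8.25 and 138 CPM. Of the 55 Cd74 UMIs of the normal cells, 81.8% lay in 1 cell. Without the 4 cells of low epithelial-marker sum the list was at 85.8 and 600 CPM, with 4 of 5 measured genes higher and Cd74 at 45.8 and 409 CPM. Of the 51 epithelial DSS cells, 4 held most of the Cd74 UMIs, at 175, 98, 86 and 67, and the others held at most 14. Over all cells of the cluster, the list's ratio of DSS to normal was 12.6 from the summed counts and 29.9 when each cell's CPM was averaged. Both include the cells of low epithelial-marker sum, of which the DSS cell with 2065 UMIs had 67797 CPM. Without those 4 cells the ratio of the summed counts was 7.00. Cd74 had a UMI in 57.4% of the DSS cells (31 of 54), against 23.2% in the DSS stem cluster. The levels varied widely within the DSS cells. Among the epithelial ones, the 13 under 6000 UMIs had a median of 1664 CPM and 11 of them held a UMI of the list, while the 38 deeper cells had a median of 10.4 CPM and 19 of them held one. In the other colonic cells, leukocytes included, the list was at 104 and 1229 CPM, and in the stem cluster at 110 and 59.8 CPM. The part of depth and free RNA in this difference was not tested.

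Genes of antimicrobial and oxidative defence rose as well. Of 22 measured members of that list 11 were higher and 2 lower in the DSS cells, with a median log2 ratio of 0.99. Over all 10250 genes measured, 1.39% were higher and 1.28% lower. The list's sum differed less, at 10039 CPM in the normal and 13122 CPM in the DSS cells, a ratio of 1.31. Gpx2, the glutathione peroxidase of the gut epithelium, rose from 1322 to 3856 CPM (log2 ratio 1.54), with log2 ratios of 1.15 in the other colonic cells and 0.01 in the stem cluster. Pglyrp1, a peptidoglycan recognition protein, rose from 268 to 928 CPM. Duox2, an oxidase that makes hydrogen peroxide at the cell surface, rose from 6.6 to 76.3 CPM and its maturation factor Duoxa2 from 13.2 to 96.1 CPM. For these 4 genes the intervals of the 2 libraries were apart. Reg3b, an antimicrobial lectin, was at 1501 CPM in the normal and 695 CPM in the DSS cells, while in the other colonic cells its log2 ratio was 2.67. It had a UMI in 9 of 36 normal and 44 of 54 DSS cells, and 57.9% of its normal UMIs were in 1 cell. As a mean over cells its log2 ratio was -0.42, in place of -1.10. Among 17 cytokines and chemokines 4 were higher, including Tnf at 32.2 and 89.3 CPM. The chemokine Ccl5 was at 217 CPM in the normal and 2.29 CPM in the DSS cells. Without the 4 cells of low epithelial-marker sum it was at 2.50 and 2.36 CPM.

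Interferon response genes were lower in the DSS cells. Of 23 measured genes 0 were higher and 8 lower, against 1.39% and 1.28% of all 10250 genes measured. The list summed to 1233 CPM (1171 to 1297) in the normal and 813 CPM (765 to 864) in the DSS cells. Isg15, a ubiquitin-like protein, fell from 52.8 to 3.81 CPM, Irf7, a transcription factor of the pathway, from 66.8 to 12.2 CPM, and Bst2, which encodes tetherin, from 153 to 37.4 CPM. In the other colonic cells the median log2 ratio of the list was -0.98, against -0.53 in cluster 13. Of 18 measured genes of a dissociation stress list 0 were higher and 4 lower, with a median log2 ratio of -0.21. The 4 were Hspa1a, Hspa1b, Hsp90aa1 and Hspb1, which encode heat shock proteins. Hspa1b, an inducible chaperone, fell from 628 to 59.5 CPM, with the same log2 ratio of -3.20 in the stem cluster. Hspa1b and its near-identical neighbour Hspa1a cannot be cleanly separated by counting.

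Of the 142 genes higher in the DSS cells, the 12 furthest up among those with a UMI in at least 25% of the cells of either library included Wfdc18, a whey acidic protein family member, at 5.78 CPM in the normal and 327 CPM in the DSS cells (log2 ratio 4.42). Igfbp4, an insulin-like growth factor binding protein, had no UMI in the normal cells and was at 55.7 CPM in the DSS cells, at least 22.5-fold higher against a floor of 3 UMIs. Trf, transferrin, rose from 14.9 to 137 CPM, Plet1, a surface protein of progenitor cells, from 23.1 to 170 CPM, and Gsta3, a glutathione transferase, from 20.6 to 133 CPM. S100a14, a calcium-binding protein, rose from 66.0 to 374 CPM. Eif2s3y and Ddx3y were also among the 12, at least 27.4-fold and 12.9-fold higher.

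Of the 131 lower genes, the 12 furthest down included Mptx1 and Xist, the latter at least 275-fold lower. Gsdmc2 and Gsdmc4, near-identical gasdermin genes of the colon, fell from 299 to 19.1 CPM and from 455 to 45.0 CPM. Their log2 ratios were -3.41 and -3.08 in cluster 13, against -1.23 and -1.41 in the other colonic cells. Otc, the ornithine transcarbamylase of the urea cycle, fell from 74.3 to 6.10 CPM (log2 ratio -2.39, against -0.69 in the other cells). Pla2g4c, a cytosolic phospholipase, was at 85.0 CPM in the normal cells, 49.5% of it from 1 cell, and had no UMI in the DSS cells, at least 37.1-fold lower. Tppp3, a tubulin-binding protein, fell from 84.2 to 3.81 CPM. Whether any of these ratios differs from that of the other colonic cells was not tested.

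**Figure D5:**
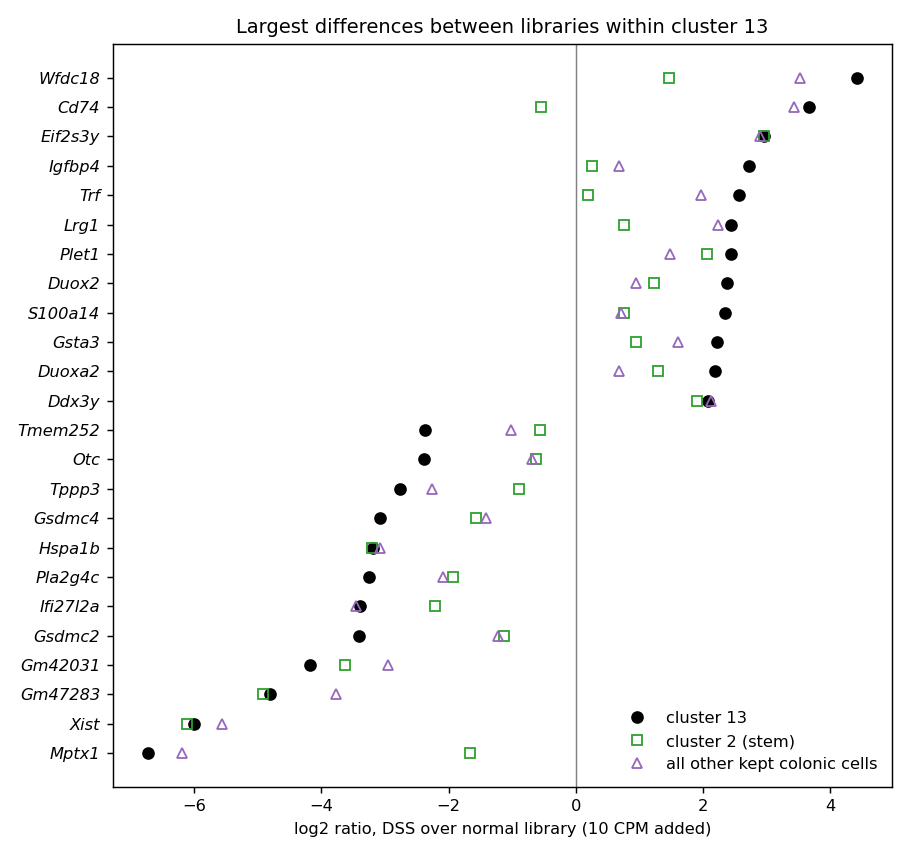
log2 ratio of DSS over normal library (10 CPM added to each level) for the 12 genes furthest up and the 12 furthest down in cluster 13, black circles for cluster 13, green squares for cluster 2 (stem) and purple triangles for all other kept colonic cells. Most genes lie on the same side of 0 in all 3 groups, with Cd74 in the stem cluster at -0.54 as the exception.

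The study's lists of injury genes, which its authors drew from published data on injured gut epithelium, DSS colitis among them, moved in part. Of 59 measured genes listed there as raised after injury, 14 were higher and 2 lower in the DSS cells of cluster 13. The higher ones included Capg, an actin-capping protein, at 28.9 and 134 CPM, and S100a11 at 229 and 617 CPM. Reg3b, on the same list, went the other way, at 1501 CPM in the normal and 695 CPM in the DSS cells. Of 49 measured genes listed as lowered, 3 were higher and 8 lower, among the latter Maoa, a monoamine oxidase, at 229 and 108 CPM. Lgr5, also listed as lowered, was higher in the DSS cells, at 2.48 and 20.6 CPM. The medians of the log2 ratio were 0.13 and -0.27, against 0.01 over all genes. Of all 10250 genes measured, 1.39% were higher and 1.28% lower.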

How the data were processed

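Single cells of colonic crypts from normal and DSS-treated mice were captured on the 10x platform, 1 library each. Per the labels and processing notes, the authors aligned reads to mm10 with Cell Ranger 3.0.0, filtered and clustered cells with Seurat 3.1.4, and deposited UMI counts per gene and cell with a table of kept cells and clusters. The paper's methods state that cells with under 1500 genes were left out, without naming the colonic libraries there. In cluster 13, 1 normal and 12 DSS cells held under 1500 genes. The count table of kept cells equalled the library matrices in every one of the 2519333 UMIs compared in cluster 13.

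Counts of the 36 normal and 54 DSS cells were summed per library and given as CPM with exact Poisson intervals (95%). Ratios were formed after adding 10 CPM. Python 3.11.15, scanpy 1.11.5 and, for scaling factors, edgeR 4.0.16 under R 4.3.3 were used. The calling rule was run on simulated counts with known changes and counting error only. Such counts hold no spread between cells or mice, so they do not show how the calls behave under it. The 20 leading genes and the 12 furthest each way needed a UMI in at least 25% of cells. Listed genes below 50 CPM in both libraries, and those singled out otherwise, were chosen after their values were seen. Members and lists were chosen with earlier results of these data known, and the proliferation lists after the data were seen. Scrublet marked 6 normal and 7 DSS cells as doublets, 1 of them in cluster 13; few cells were marked, so no cell was removed. Median scores were 0.0468 and 0.0490 in cluster 13 against 0.0286 and 0.0272 over each library, and 4 normal and 1 DSS cells of the cluster were among the 5% with the highest scores. Gene coordinates are of GRCm38.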

Additional observations from a re-analysis of the deposited data

Results flagged for a closer look

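Cell cycle genes also appeared in barcodes that the authors did not keep, which no comparison above used. A UMI of at least 5 of the 14 cell cycle genes was found in 43 of 2495 such barcodes (1.72%, exact binomial 95% interval 1.25 to 2.31%) of the normal library and in 91 of 2813 (3.23%, 2.61 to 3.96%) of the DSS library. All of them had an epithelial-marker sum of at least 1000 CPM. Mitochondrial UMIs made up over 20% in 42 of the 43 and in 90 of the 91, with medians of 38.3 and 42.8%, and median depths of 8987 and 9625 UMIs.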

How the results depend on the processing

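No paired analysis was possible because each condition had 1 library. The count of genes at least 4-fold up in cluster 13 was 73, and became 255 with 1 CPM added in place of 10 (all 73 among them) and 9 with 50 CPM added. The count of genes higher in the DSS cells was 142, and became 239 and 33 with 1 and 50 CPM added and 276 (107 shared) when each cell's CPM was averaged. The count of lower genes was 131, and became 215, 36 and 225 (111 shared). In every other setting tried (no filter on low values, another total, TMM factors, cells of at least 1500 genes, without Ptprc-holding cells, without high doublet scores, without the deepest cells, another reference) these counts stayed within 1.5 times. The shares of cluster 13 stayed within their intervals. Chosen after seeing the data were the settings without the 4 cells of low epithelial-marker sum, with cells of at least 6000 UMIs only, without cells of 10 or more Muc2 UMIs, and without the shared barcode. Of the named genes that were called, 1 turned its direction, Fcgbp, to a log2 ratio of 0.10 without the Muc2-rich cells; that setting removes the 11 cells. Genes that were not called also changed sign, such as Tff3 (log2 ratio 0.44), at -0.65 without the deepest cells. Thinning moved 23 of 28 shares of cells with a UMI past their intervals. With 36 and 54 cells, no share of cells in cluster 13 is known to within a few percent.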
